A study of Rattus norvegicus with 8 samples.

Results

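MicroRNA (miRNA) levels after clozapine were compared with those after risperidone in the rat glioblastoma line C6, a line of astrocyte-like tumour cells. Of the 8 arrays in the study, 2 of clozapine and 2 of risperidone were used, and no array of untreated or haloperidol-treated cells entered. The clozapine cultures received 25 µg/ml and the risperidone cultures 4 µg/ml, added to the medium each day for 5 days, so drug and concentration cannot be told apart. A miRNA was tested where the scanner software called it detected on both arrays of either drug. That kept 207 of the 719 miRNAs on the array and left out 512. Both arrays of clozapine detected 199 miRNAs and both arrays of risperidone 193. Per the design text, the arrays of each drug are biological repeats, so the spread between them includes cultures and arrays, all from 1 cell line.

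Clozapine, a dibenzodiazepine, and risperidone, a benzisoxazole, are second-generation antipsychotics that block serotonin and dopamine receptors, and clozapine also acts on muscarinic and histamine receptors. A miRNA is a short RNA cut from a hairpin precursor. It lowers the stability and translation of messenger RNAs that pair with its seed, which is bases 2 to 8 from its 5′ end. Both arms of a hairpin (5p and 3p) can be loaded into the silencing complex, and miRNAs that share a seed share many predicted targets.

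The following mature sequences are printed 5′ to 3′ with the seed in capitals, as given by RefSeq for the rat assembly GRCr8, in which 181 of the 207 miRNAs were matched. The first set is shown because these miRNAs differed between the drugs in the same direction in both replicates.
miR-290: uCUCAAACuaugggggca
miR-21-3p: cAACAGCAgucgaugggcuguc
miR-487b-3p: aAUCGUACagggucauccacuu
miR-30a-3p: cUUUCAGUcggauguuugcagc
miR-340-3p: uCCGUCUCaguuacuuuauagcc
miR-23a-3p: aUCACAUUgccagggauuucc
miR-23b-3p: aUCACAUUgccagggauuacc
A second set is rich in G and C and was lower with clozapine mainly in replicate 2. Of these, miR-370-3p was lower in replicate 2 only (0.15 in replicate 1 and -1.37 in replicate 2).
miR-188-5p: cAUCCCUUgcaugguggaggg
miR-1224: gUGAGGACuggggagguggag
miR-770-3p: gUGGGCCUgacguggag
miR-370-3p: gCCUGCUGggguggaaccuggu
The last set is poorer in G and C and differed in opposite directions in the 2 replicates.
miR-33-5p: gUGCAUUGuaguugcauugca
miR-29b-3p: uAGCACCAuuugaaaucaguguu
miR-101a-3p: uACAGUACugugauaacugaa
miR-19a-3p: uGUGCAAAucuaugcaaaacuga
miR-340-5p: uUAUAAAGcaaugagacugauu

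On GRCr8, miR-290 lies at chr1:74880106-74880123 on the minus strand, within the span of Nlrp12, and miR-21-3p at chr10:71902615-71902636 on the minus strand. The 2 arms of miR-340 lie at chr10:34894668-34894689 (5p) and chr10:34894710-34894732 (3p) on the plus strand, within Rnf130. The precursor of miR-33-5p lies within Srebf2, the gene of a sterol-responsive transcription factor, with the mature sequence at chr7:115593957-115593977 on the plus strand. The sequence of miR-188-5p lies within Clcn5 at chrX:17919595-17919615 on the plus strand. In Meg3, the maternally expressed RNA of the imprinted Dlk1-Dio3 region, miR-770-3p lies at chr6:134298129-134298145 on the plus strand, and miR-487b-3p of the same region at chr6:134562939-134562960. The near-identical miR-23a-3p and miR-23b-3p come from chr19:40859778-40859798 and chr17:1819405-1819425, both on the minus strand, the latter within Aopep. In Vwa5b2, miR-1224 lies at chr11:93811355-93811375 on the minus strand. Outside the span of another gene, miR-30a-3p lies at chr9:33233987-33234008 and miR-19a-3p at chr15:98588179-98588201, both on the plus strand. The gene-level annotation used here does not say whether a miRNA lies in an exon or an intron of a spanning gene. An array probe may bind both miR-23a-3p and miR-23b-3p, so their values are uncertain as separate measurements.

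The second replicates gave weaker signals. The log10 signal of the labelling spike-in was 2.73 on risperidone replicate 2 and 2.88 on clozapine replicate 2, against 2.99 and 3.01 on the first replicates of risperidone and clozapine and 2.99 to 3.12 on the other 4 arrays of the study. Risperidone replicate 2 detected 193 miRNAs and clozapine replicate 2 detected 203, against 249 and 233 on the first replicates. The 75th percentile used for scaling was 372 and 675 on the second replicates of risperidone and clozapine, and 1079 and 782 on the first. No spot was saturated. All arrays lay on a single slide, where the replicate number was the row and each drug had its own column, so drug and column cannot be told apart. Where 2 differences follow a miRNA or a list below, they are those of replicates 1 and 2 in that order.

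A level is the log2 of a miRNA's signal over its array's 75th percentile, so a level of 0 is that percentile, and values were floored at -6.09. Every difference is clozapine minus risperidone on this log2 scale. Of the 207 miRNAs, 185 were detected on all 4 arrays, and 22 on 3 of them. Of the 22, 14 lacked 1 risperidone array and 8 lacked 1 clozapine array, and none was detected on both arrays of a drug and on no array of the other. The 22 had a median level of -5.11 where detected. Just outside the rule were 43 miRNAs detected on 1 array or on 1 array of each drug, with a median of -5.78 where detected. Of these, 42 were detected on risperidone replicate 1 and 27 on clozapine replicate 1, but 0 and 3 on the second replicates of risperidone and clozapine.

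No miRNA passed the test between the drugs. limma called 0 of 207 (percentage called 0) at an adjusted p under 0.05, and every adjusted p was 1. At an unadjusted p under 0.05 it called 1 miRNA, miR-290, which is 0.483% of those tested. All differences lay between -0.92 and 0.95, and 181 miRNAs (87.4%) differed by less than 0.5. The floor limits that range, and with a lower floor miR-195-5p was at 1.17 and miR-370-3p at -1.08. The median standard error was 0.28, and the median 95% confidence interval reached 0.78 to either side. For 107 miRNAs the interval lay wholly between -1 and 1, so a 2-fold or larger difference of the floored levels lies outside it. Where values are at the floor the interval does not bound the true difference. An example is miR-34c-3p, at the floor of -6.09 on all 4 arrays. For miRNAs not among the 107 the arrays do not bound the difference that closely. An exact permutation of 2 against 2 arrays cannot give a p below 0.333.

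More miRNAs lay below 0 than above it. The difference was below 0 for 121 miRNAs (58.5%) and above 0 for 85 (41.1%), with a median of -0.03. The median was -0.07 in replicate 1 and 0.04 in replicate 2. Both arrays of a drug lay beyond both arrays of the other for 34 miRNAs (16.4%), of which 14 were higher with clozapine (6.76%) and 20 lower (9.66%). The difference had the same sign in both replicates for 77 miRNAs (37.2%) and opposite signs for 122, and 8 had a difference of 0 in at least 1 replicate.

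The first replicates of the 2 drugs differed less than the repeats of a drug did, and the second replicates differed about as much. The median size of the difference was 0.192 between the drugs in replicate 1 and 0.307 in replicate 2. It was 0.337 between the clozapine arrays and 0.347 between the risperidone arrays. Across miRNAs, the SD of the difference was 0.378 and 0.563 between the drugs in replicates 1 and 2, and 0.561 and 0.598 within clozapine and risperidone. The levels correlated across miRNAs most highly between the 2 first replicates (Pearson r = 0.991) and least between the risperidone arrays (r = 0.978), where all pairs share the same array design and miRNAs are not independent.

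**Figure D1:**
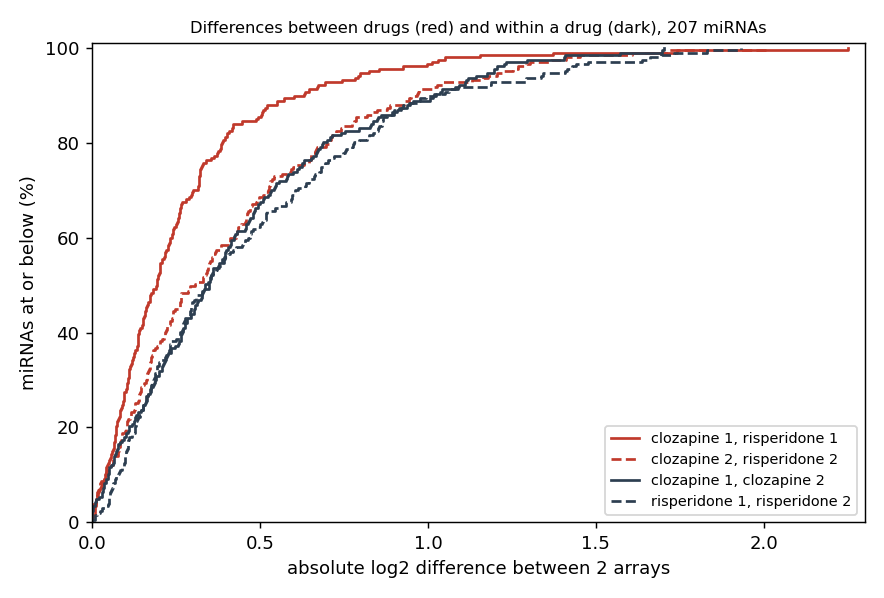
Cumulative share of the 207 miRNAs (y axis, percent) with an absolute log2 difference between 2 arrays at or below the value on the x axis, for the 2 pairs of different drugs (red) and the 2 pairs of the same drug (dark). The pair of first replicates lies leftmost, with a median of 0.192, and the other 3 pairs have medians of 0.307 to 0.347.

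Among miRNAs lower with clozapine, miR-290 stood at -2.36 and -2.31 on clozapine replicates 1 and 2, and at -1.51 and -1.57 on risperidone replicates 1 and 2. The drugs did not overlap, and the means were -2.34 ± 0.036 with clozapine and -1.54 ± 0.040 with risperidone (SD, n = 2 arrays each). The miRNA belongs to the miR-290 to miR-295 cluster, known from embryonic stem cells. In replicates 1 and 2 it differed by -0.85 and -0.75. Its mean difference was -0.80 (SE 0.18, 95% confidence interval -1.30 to -0.30), a level 1.74-fold lower with clozapine, with a limma unadjusted p of 0.012 and an adjusted p of 1. Both of its probes were lower, and the measurement error of each replicate's difference, from repeated spots on the arrays, was 0.149 and 0.155. The other 10 miRNAs of the cluster on the array were detected on 0 of the 4 arrays. On arrays outside the comparison miR-290 stood at -3.82 and -2.83 in untreated cells and at -1.76 and -2.08 with haloperidol, so the untreated arrays differed from each other by more than the drugs did.

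The other arm of the oncogenic miR-21 hairpin, miR-21-3p, stood at -1.08 and -0.82 with clozapine and at -0.69 and -0.29 with risperidone. The drugs did not overlap, and all 4 of its probes were lower with clozapine. In replicates 1 and 2 it differed by -0.40 and -0.53. The mean difference was -0.46 (SE 0.25, 95% confidence interval -1.15 to 0.23). Under normexp background correction it was 0.05, where the median of all miRNAs was 0.26. In contrast to the 3p arm, miR-21-5p, the brightest miRNA, overlapped between the drugs at 7.24 and 7.67 with clozapine and 7.25 and 7.41 with risperidone, a difference of 0.12 (SE 0.24; -0.01 and 0.26). Apart from miR-290, miR-21-3p was the only one of the 185 miRNAs with a spot error in both replicates whose difference exceeded 2 such errors in the same direction both times, and none did so upwards.

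From the imprinted Dlk1-Dio3 region, miR-487b-3p stood at -4.06 and -4.09 with clozapine, and at -3.72 and -3.27 with risperidone. Its difference was -0.58 (SE 0.24; -0.34 and -0.82), without overlap. A further group had a small difference in replicate 1 and a large one in replicate 2. In this group miR-188-5p differed by -0.32 in replicate 1 and -1.41 in replicate 2, from levels of -4.37 and -4.90 with clozapine and -4.05 and -3.49 with risperidone. Bright among them was miR-1224, a miRNA made from a short intron without Drosha, with levels of 0.90 and 0.48 against 0.999 and 1.78, or differences of -0.09 and -1.29. The lowest mean difference of all, -0.92 (SE 0.49), belonged to miR-770-3p (-0.13 and -1.72), which stood at -4.40 and -5.63 with clozapine against -4.27 and -3.92 with risperidone.

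Completing the 10 named on this side were miR-150-3p (mean difference -0.61, SE 0.28), miR-3593-3p (-0.76, SE 0.43), miR-106b-3p (-0.49, SE 0.26) and miR-326-3p (-0.37, SE 0.18). In replicates 1 and 2 they differed by -0.24 and -0.97, by -0.08 and -1.45, by -0.11 and -0.88, and by -0.32 and -0.43. The 4 probes of miR-106b-3p split, with 2 higher and 2 lower with clozapine, while every probe of the other 9 was lower. All 10 were without overlap between the drugs, against 16.4% of all 207 miRNAs. They were picked on these same arrays by small limma p and same sign, which favours a lack of overlap. In 9 of them the difference was larger in size in replicate 2 than in replicate 1. That held for 129 of all 207 miRNAs and for 5 of the 10 named as higher. Under normexp background correction 8 of the 10 turned above 0, and miR-290 and miR-1224 did not. The median of all miRNAs also rose, to 0.264. Of the 8, miR-21-3p (0.047) and miR-150-3p (0.257) stayed below that median. Normexp also placed miR-34c-3p at 0.65, a miRNA at the floor on all 4 arrays with a main difference of 0. Normexp signs of dim miRNAs, here and below, are therefore no check on their direction.

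Among miRNAs higher with clozapine, miR-30a-3p stood at -4.36 and -4.40 against -4.74 and -4.93 with risperidone, and was not detected on 1 of the risperidone arrays. The same pattern held for miR-30e-3p, at -3.01 and -3.11 against -3.36 and -3.46. Both are the 3p arms of hairpins of the miR-30 family, and the drugs did not overlap in either. Their mean differences were 0.45 (SE 0.19) and 0.35 (SE 0.18). By replicate they were 0.38 and 0.52 for miR-30a-3p and 0.36 and 0.34 for miR-30e-3p.

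The 5p arms did not do the same. In replicate 1, miR-30e-5p was lower with clozapine (-0.80) and in replicate 2 higher (0.49), and miR-30a-5p gave -0.42 and 0.44. Likewise miR-340-3p was higher in both replicates (0.18 and 0.46), at -2.45 and -2.43 against -2.63 and -2.89, while miR-340-5p gave -0.49 and 0.56. Over the 38 hairpins with both arms tested, the arms had the same sign of mean difference in 21 and opposite signs in 16.

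Of the bright miRNAs, miR-23a-3p stood at 4.25 and 4.30 with clozapine against 3.99 and 4.06 with risperidone, and miR-23b-3p at 3.38 and 3.16 against 3.12 and 2.98. Neither overlapped between the drugs, with mean differences of 0.25 (SE 0.18) and 0.22 (SE 0.20). By replicate they were 0.26 and 0.24 for miR-23a-3p and 0.27 and 0.17 for miR-23b-3p. The 5p arm of the first, miR-23a-5p, differed by less than 0.01 in replicate 1 and by -0.83 in replicate 2, a mean of -0.42 (SE 0.57) with overlap. Small differences without overlap were also measured for miR-361-5p (0.22 and 0.23; mean 0.22, SE 0.18) and for miR-181a-1-3p (0.33 and 0.10; mean 0.21, SE 0.19). The drugs overlapped in miR-26b-5p (0.25 and 0.22; mean 0.23, SE 0.23).

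The highest difference, 0.95 (SE 0.62; 0.30 and 1.61), was that of miR-195-5p, a member of the cell-cycle-restraining miR-15/16 family. It rested on risperidone replicate 2, which was at the floor of -6.09, while risperidone replicate 1 stood at -4.45 and the clozapine arrays at -4.15 and -4.48. Another weak miRNA, let-7c-1-3p, stood at -4.55 and -5.30 with clozapine against -5.15 and -6.07, a difference of 0.69 (SE 0.46; 0.60 and 0.78) with overlap. Over all 10 miRNAs named as higher, none turned below 0 under the 10 other settings of scaling, background, probe summary, floor and GC correction where it had a value. For the dim ones among them the normexp setting is no check, since it raised a miRNA at the floor as well. Under normexp, however, miR-23a-3p, miR-23b-3p and miR-26b-5p lay below the median of all miRNAs.

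**Figure D2:**
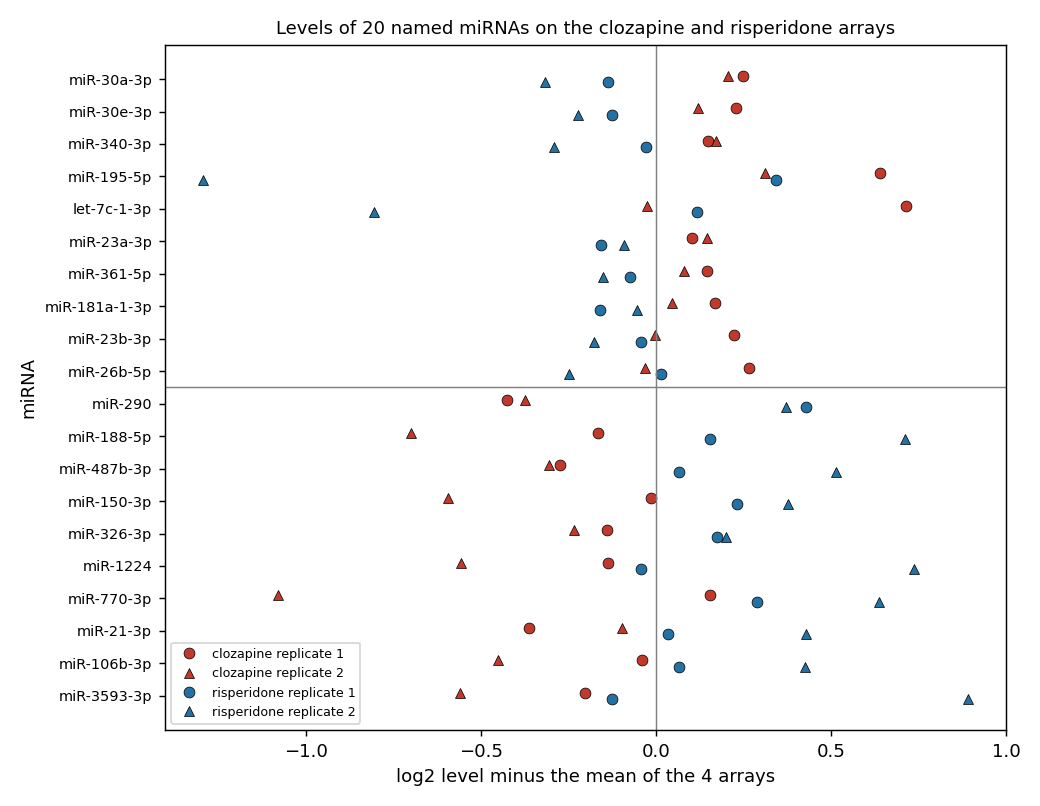
Log2 level on each of the 4 arrays, given as its distance from the miRNA's mean over the 4 (x axis), of the 10 miRNAs lower and the 10 higher with clozapine named in the text, with clozapine and risperidone in different colours and the replicate number shown by the marker. In 17 of the 20 the clozapine and risperidone points do not overlap, and the exceptions are miR-195-5p, let-7c-1-3p and miR-26b-5p. The 20 were picked on these same arrays by small limma p and same sign, which favours a lack of overlap. Over all 207 miRNAs 16.4% did not overlap. The risperidone replicate 2 point of miR-195-5p is at the floor.

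The 2 replicates gave opposite differences for a group of well-measured miRNAs. In 19 of the 185 the difference exceeded 2 spot errors in both replicates with opposite signs, and in 17 of the 19 clozapine was lower in replicate 1 and higher in replicate 2. Over all 207 miRNAs clozapine was lower in replicate 1 for 122 and higher in replicate 2 for 109. These are separate counts for each replicate, and how many miRNAs had both was not counted. The largest case was miR-33-5p, which restrains cholesterol export from within the Srebf2 gene. It stood at -5.19 and -3.62 with clozapine and at -2.94 and -4.88 with risperidone, so it differed by -2.25 in replicate 1 and 1.25 in replicate 2. The mean difference of -0.50 (SE 0.91) describes neither replicate. By spot error (0.272 and 0.335) each of these differences was well measured within its pair of arrays.

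Next in size was miR-29b-3p, which targets collagen and other matrix messages, at 2.52 and 3.72 with clozapine and 3.68 and 3.07 with risperidone. It differed by -1.15 in replicate 1 and 0.65 in replicate 2. With the same seed, miR-29a-3p gave -0.21 and 0.24 and miR-29c-3p -0.30 and 0.36, so all 3 members turned in the same order. For miR-193-3p the differences were -1.05 and 0.59, for miR-101a-3p -0.67 and 0.53, for miR-101b-3p -0.63 and 0.60, and for miR-19a-3p -0.63 and 0.50. The 2 exceptions in the other order were miR-125a-3p (0.27 and -0.71) and miR-455-3p (0.40 and -0.71). Across all 207 miRNAs the 2 replicates' differences had a Pearson r of -0.289, and over the 185 of -0.308. These describe 4 arrays, and miRNAs on the same array are not independent.

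**Figure D3:**
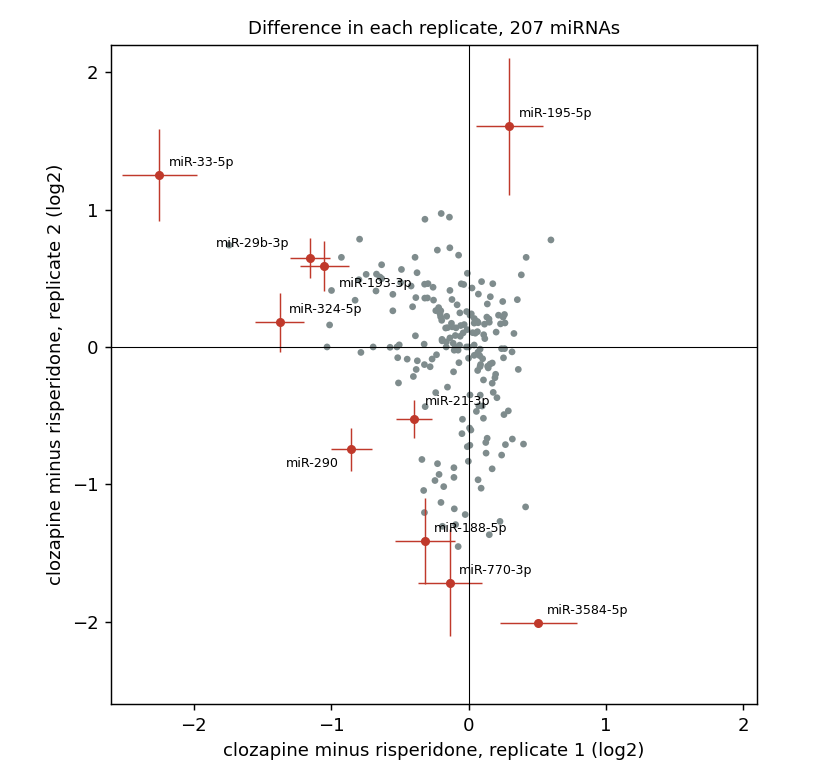
Clozapine minus risperidone (log2) in replicate 1 (x axis) and replicate 2 (y axis) for the 207 miRNAs, with bars of 1 spot error on the labelled miRNAs, except in replicate 2 for miR-3584-5p, which has none there. miR-290 and miR-21-3p lie lower left, miR-33-5p and miR-29b-3p upper left, and miR-770-3p near the vertical line at -1.72 in replicate 2.

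Base composition moved with the difference in replicate 2 and hardly in replicate 1. Across the 181 miRNAs with a sequence, the GC percentage and the difference had a Pearson r of 0.07 in replicate 1 and -0.57 in replicate 2. Among the 24 miRNAs of 60% GC or more, the median difference was -0.06 in replicate 1 and -0.74 in replicate 2, and clozapine was lower in 13 and 22 of them. Among the 35 under 40% GC it was -0.17 and 0.26, with clozapine lower in 26 and 5. In the GC-rich class, risperidone replicate 2 lay above replicate 1 (median of replicate 1 minus 2, -0.35) and clozapine replicate 2 below it (0.38).

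By median, the miRNAs named above as lower with clozapine were richer in GC than all miRNAs, while those named as higher were not poorer in it. The median GC content was 61.9% in 9 of the 10 named as lower with clozapine, 46.5% in 8 of the 10 named as higher, and 45.5% over all 181. It was 40.9% in 17 of the 19 with opposite differences. With each array's dependence on GC removed, an alternative added after seeing the data, miR-290 was at -0.66, miR-188-5p at -0.54 and miR-770-3p at -0.46. After the same step miR-21-3p was at -0.18, miR-326-3p at 0.03, miR-30a-3p at 0.60 and miR-195-5p at 0.98. limma then called 0 miRNAs at an adjusted p under 0.05 and 2 at an unadjusted p under 0.05. The part of labelling in the GC pattern was not tested.

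**Figure D4:**
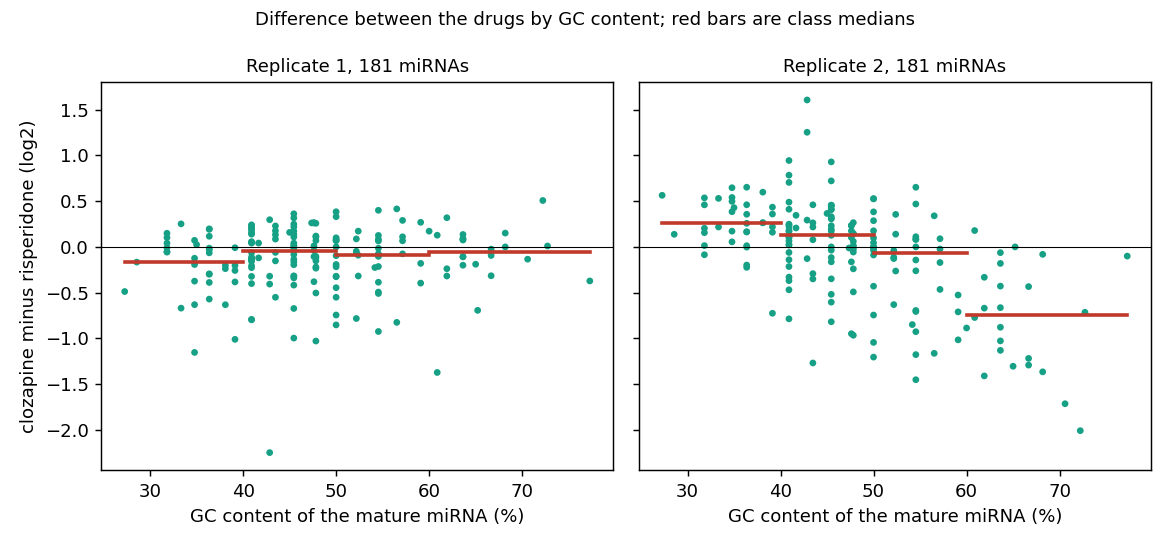
Clozapine minus risperidone (log2, y axis) against the GC percentage of the mature miRNA (x axis) for 181 miRNAs in replicate 1 (left) and replicate 2 (right), with red bars at the medians of 4 GC classes. The class medians lie between -0.17 and -0.05 in replicate 1 and descend from 0.26 to -0.74 in replicate 2.

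In the families and clusters described next, limma called 0 members at an adjusted p under 0.05. The counts stand against 41.1% above 0 and 58.5% below 0 over all 207 miRNAs, a median of -0.03, and 16.4% without overlap. For the miR-23, miR-27 and miR-24 clusters, each transcribed as a unit, the list held the 3p arms. Of these, 5 of 5 were above 0, with a median of 0.12 (0.06 in replicate 1 and 0.23 in replicate 2). That median lay above 0 under each alternative, but under normexp it was 0.19 below the median of all miRNAs. In 4 of the 5 the drugs did not overlap: miR-23a-3p, miR-23b-3p, miR-27b-3p (0.01 and 0.23) and miR-24-3p (0.06 and 0.11). The fifth, miR-27a-3p, gave -0.32 and 0.36. Outside the list, the 5p arms miR-23a-5p (mean -0.42) and miR-24-2-5p (-0.74 and 0.53; mean -0.11) were below 0, so the clusters were not uniform.

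The Dlk1-Dio3 imprinted cluster, which holds many miRNAs of brain and embryo, had 4 of its 79 mature miRNAs tested, and all 4 were below 0 with a median of -0.59, which was 0.36 under normexp. The replicates differed, with medians of 0.01 and -1.32. With differences of 0.23 and -1.27, miR-494-3p was the brightest of the 4, at 1.21 and 0.20 with clozapine against 0.98 and 1.47. For miR-370-3p, at the floor on clozapine replicate 2, they were 0.15 and -1.37. The drugs overlapped in these 2, and did not in miR-770-3p and miR-487b-3p.

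Of the 102 miRNAs with the highest catalogue numbers (miR-3000 upwards), 9 were tested, and 8 of them were below 0 with a median of -0.39 (-0.08 in replicate 1 and -1.13 in replicate 2), which was 0.43 under normexp. The lowest was miR-3593-3p, and the only one above 0 was miR-3559-5p (-0.29 and 0.46; mean 0.08).

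Seed families with growth-restraining roles lay on different sides. The miR-15/16 family had 5 of 6 members above 0, with a median of 0.07 (-0.06 in replicate 1 and 0.25 in replicate 2), which under normexp lay 0.14 below the median of all miRNAs. Its lowest member was miR-503-5p (-0.83 and 0.34; mean -0.24). The miR-34 and miR-449 seed family, of which the miR-34 members respond to p53, had 3 of 4 members below 0. Its median of -0.26 stayed below 0 under each scaling. By replicate that median was -0.48 and 0.09. The lowest member was miR-34b-5p (-1.01 and 0.16; mean -0.43) and the highest miR-449a-5p (-0.32 and 0.46; mean 0.07), and miR-34a-5p gave -0.45 and -0.09.

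The let-7 family, markers of differentiation, had 6 of 8 members below 0, with a median of -0.03 (0.12 in replicate 1 and -0.18 in replicate 2) that turned above 0 with the deposited gene-level signal, with no scaling and with the percentile over all probes. Its range ran from let-7b-5p (0.11 and -0.52; mean -0.21) to miR-98-5p (0.04 and 0.01; mean 0.03). The miR-17 to miR-92a cluster and its paralogues, which drive proliferation, had 6 of 10 members below 0 and a median of -0.05 (-0.21 and 0.24), which turned above 0 under the same settings and after the GC correction. Members ran from miR-18a-5p (-0.55 and 0.26; mean -0.14) to miR-19b-3p (-0.26 and 0.43; mean 0.09). All 4 miR-181 members were below 0 with a median of -0.12 (0.10 and -0.30), which turned above 0 with no scaling and with normexp, from miR-181c-5p (-0.67 and 0.41; mean -0.13) to miR-181a-5p (0.11 and -0.24; mean -0.07).

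The miR-29 family had a median of 0.02 over replicates that opposed each other (-0.30 and 0.36), and the miR-30 family a median of 0.01 (0.02 and 0.24). The miR-29 median turned below 0 with quantile normalization, cyclic loess, normexp and the GC correction, and the miR-30 median lay below that of all miRNAs with normexp. The extremes of the miR-30 family were miR-30c-5p (0.13 and 0.22; mean 0.18) and miR-30e-5p (mean -0.15). Both miR-26 members were above 0 (miR-26a-5p 0.20 and 0.11, miR-26b-5p as above), though below the median of all miRNAs under normexp. For miR-221 and miR-222 the median was 0.02 (0.12 and 0.06), from miR-222-3p (0.17 and -0.26; mean -0.05) to miR-221-3p (0.12 and 0.06; mean 0.09), with 3 tested, and it lay below that of all miRNAs with normexp. In the miR-125, miR-99 and miR-100 family the median was 0.03 (0.07 and -0.02), from miR-99b-5p (0.07 and -0.43; mean -0.18) to miR-100-5p (0.07 and 0.18; mean 0.12), and it turned below 0 with quantile normalization, cyclic loess and normexp. Over the 23 seeds shared by at least 2 tested miRNAs, which covered 66 miRNAs, all members of 11 seeds had the same sign of mean difference. Most of these seeds had only 2 members, and how often unrelated miRNAs share a sign was not tested.

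**Figure D5:**
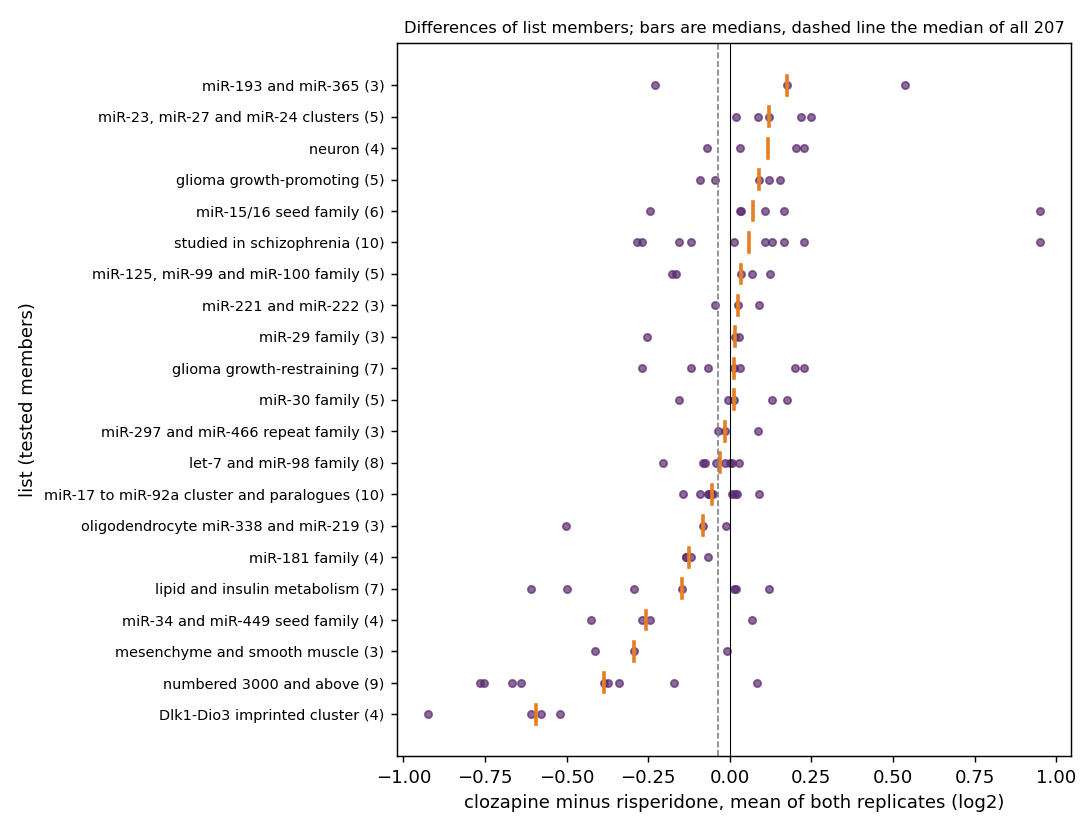
Clozapine minus risperidone (log2, x axis) for the tested miRNAs of the families and clusters on the y axis, with points for miRNAs and marks for list medians. The miR-23, miR-27 and miR-24 clusters lie wholly above 0, and the 4 Dlk1-Dio3 miRNAs wholly below it.

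Lists of miRNAs tied to glioma, drug side effects and psychiatric disease spread to both sides of 0. Of 5 glioma growth-promoting miRNAs 3 were above 0, from miR-93-5p (-0.07 and -0.11) to miR-26a-5p, and of 7 growth-restraining ones 4 were above 0, from miR-34a-5p (mean -0.27) to miR-7a-5p (0.07 and 0.38; mean 0.23). The median of the first list was 0.09 (0.12 and 0.06) and that of the second 0.01 (0.07 and 0.10), and under normexp both lay below that of all miRNAs. Of 7 miRNAs of lipid and insulin metabolism 4 were below 0, with a median of -0.14 that turned above 0 under 6 of the 10 settings and differed in sign between replicates (-0.23 and 0.23). The lowest was miR-370-3p (mean -0.61) and the highest miR-27b-3p (0.01 and 0.23). Among 10 miRNAs studied in schizophrenia 6 were above 0, with a median of 0.06 (0.06 and 0.18) that lay below that of all miRNAs under normexp, from miR-212-3p (mean -0.28) to miR-195-5p. The CREB-responsive miR-212-3p was also the 1 tested of the 4 miRNAs of the miR-132 and miR-212 cluster, at 0.13 and -0.70 in replicates 1 and 2.

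The smaller lists had 3 tested members each. Oligodendrocyte miR-219-5p gave -1.74 and 0.74, and miR-338-3p -0.38 and 0.36, where the list's median of -0.08 (-0.38 and 0.36) turned above 0 with cyclic loess and with normexp. From the miR-193 and miR-365 list, miR-193-5p gave 0.42 and 0.65, a mean of 0.54, with risperidone replicate 2 at the floor. The list's median of 0.18 (0.15 and 0.59) lay below that of all miRNAs under normexp. Within the miR-297 and miR-466 repeat family 3 members were tested, with a median of -0.01 (-0.14 and 0.07), from miR-466b-5p (-0.14 and 0.07; mean -0.03) to miR-466b-1-3p (0.25 and -0.08; mean 0.09), and its sign turned under 6 of the 10 settings.

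The brightest miRNAs on the 4 arrays were miR-21-5p and miR-23a-3p, given above, with miR-24-3p, miR-125b-5p and the matrix-regulating miR-29a-3p. The neural miR-125b-5p stood at 5.30 and 5.15 with clozapine and 5.21 and 5.16 with risperidone, a difference of 0.03 (0.08 and -0.02; 95% confidence interval -0.49 to 0.56). For miR-24-3p the levels were 4.12 and 4.07 against 4.06 and 3.96, with an interval of -0.42 to 0.60, and miR-29a-3p had an interval of -0.57 to 0.61. At these bright levels a 2-fold difference lies outside the intervals.

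Markers of other cell types were checked because the cells are a cultured line. Of 8 neuronal miRNAs 4 were tested, from miR-9a-5p (-0.19 and 0.06) to miR-7a-5p, with a median of 0.12 (-0.05 and 0.24), and 3 were detected on 0 arrays. Of 5 leukocyte miRNAs 1 was tested, miR-146a-5p (0.23 and 0.17), and of 2 endothelial ones miR-126a-3p (-0.04 and 0.45). Risperidone replicate 1 detected 4 of the 5 leukocyte miRNAs, and clozapine replicate 1 and both second replicates detected 1 each. Of 5 mesenchymal miRNAs 3 were tested, from miR-199a-5p (-0.78 and -0.04) to miR-199a-3p (0.04 and -0.06), and the sign of their median of -0.29 (-0.78 and -0.04) turned with 4 settings. None of the erythrocyte or skeletal muscle miRNAs was tested. Still, 2 of 4 skeletal muscle miRNAs were detected on both first replicates, and 1 of 3 erythrocyte miRNAs on risperidone replicate 1. All 6 epithelial miRNAs and the hypoxia miRNA were detected on 0 arrays.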

How the data were processed

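RNA from 4 cultures was hybridised to Agilent single-colour (Cy3) rat miRNA arrays. The intensity values and detection flags (other, 0 or 1) deposited by the authors came from Agilent Feature Extraction 10.7.3.1, per the file headers. After outlier spots were dropped, background-subtracted signals were averaged for each probe and added up for each miRNA. Scaling used the 75th percentile of the 295 probes that were above background on each of the 4 arrays. Scaled values below 0.0147, the 5th percentile of those detected, were set to it before log2. limma 3.58.1 in R 4.3.3 (lmFit, eBayes) fitted the 4 arrays with 2 residual and 3.88 total degrees of freedom, two-sided, with Benjamini-Hochberg adjustment over 207 miRNAs at 0.05. The fit was run on simulated data with independent noise. Those data lacked the replicate, GC and floor patterns of these arrays, so the run does not show how the fit handles them. Spot errors come from the deposited total gene error and are technical.

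Named miRNAs were the 10 per direction with the smallest p among those with the same sign in both replicates, the other arms of their hairpins, the 5 brightest, and the extremes of each list. Other miRNAs, chosen after their values were seen, are miR-33-5p, miR-29b-3p and the others with opposite differences, and the GC-rich ones printed. The comparison and lists were chosen with earlier results of these data known. At the floor spread is hidden. The number of arrays limits the precision.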

Additional observations from a re-analysis of the deposited data

How the results depend on the processing

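Under 19 alternatives with a test, limma called 0 miRNAs at an adjusted p under 0.05, and the smallest adjusted p was 0.671, without clozapine replicate 1. At an unadjusted p under 0.05 it called 0 to 11 miRNAs, with 11 without clozapine replicate 1, 8 without risperidone replicate 1, 4 without clozapine replicate 2 and 3 without risperidone replicate 2, where the lone array is assumed to vary like the others. Quantile normalization gave 6, no filter on dim miRNAs 7 and cyclic loess 3. Fitting all 8 arrays gave 2. With the replicate number as a block limma called 0 after adjustment (lowest value 1) and 4 before it. The labels do not say that the number pairs the cultures, and deviations of same-numbered arrays correlated at 0.133.

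The median over all miRNAs was 0.14 without scaling and 0.26 with normexp, and -0.12 (without risperidone replicate 2) to 0.048 (without risperidone replicate 1) when an array was left out. With normexp, which used spot and background medians, the difference turned to 0.52 for miR-106b-3p, 0.26 for miR-150-3p, 0.34 for miR-188-5p, 0.047 for miR-21-3p, 0.48 for miR-326-3p, 0.31 for miR-3593-3p, 0.35 for miR-487b-3p and 0.38 for miR-770-3p. After the GC correction miR-326-3p was at 0.026. The cause of these turns was not tested. miR-290 was below 0 in all settings, from -0.85 in replicate 1 alone to -0.14 with normexp. Weak signals limit 20 of the 207 miRNAs, which were at the floor on at least 1 array.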
